A study of Bos taurus with 6 samples.

Results

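Bta-miR-224, bta-miR-452 and bta-miR-383 were followed in granulosa cells of cattle, where preovulatory dominant follicles (the dominant group) were compared with subordinate ones. The members were the mature miRNA names in the count files that carry one of these numbers, and there were 3 of them among 755 mature names. Each was listed under 1 precursor, so their counts did not depend on how repeated precursor rows were treated. The cells came from Simmental heifers whose cycles had been synchronised with a prostaglandin analogue (cloprostenol) and a GnRH analogue (buserelin), and that were slaughtered on day 19 after oestrus. The study assigned follicles to the dominant or the subordinate group by their surface diameter, and it pooled granulosa cell RNA into 3 libraries per group. Both groups came from the same animals, with far fewer dominant than subordinate follicles, so a dominant library may hold few follicles or a single one. The libraries are named here D1 to D3 (dominant) and S1 to S3 (subordinate), after the replicate numbers of the labels.

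Granulosa cells line the inside of the follicle and make estradiol from theca cell androgens with the enzyme aromatase (CYP19A1). A miRNA is a short RNA that guides the silencing complex to matching sites in mRNAs, which lowers their translation or stability. MiR-224 is known from mouse granulosa cells as a miRNA induced by transforming growth factor beta that represses SMAD4 and raises estradiol release. MiR-383 is known from the same cell type as a miRNA that raises estradiol release by repressing the RNA-binding protein RBMS1. MiR-452 is best known as the partner of miR-224, since the hairpins of both lie in GABRE, the gene of the epsilon subunit of the GABA-A receptor. Whether these miRNAs differed between the follicle that is about to ovulate and those that regress is the question the comparison addresses.

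With the largest precursor row of each mature name, the dominant libraries held between 190385 and 311842 reads and the subordinate libraries between 306932 and 364125. Levels are given as CPM, read counts scaled to a common library size with edgeR's TMM factors, and 3 reads, the level below which a value could not be told from 0, were worth between 8.86 and 13.9 CPM. Dominant and subordinate libraries were compared with edgeR's quasi-likelihood test over the 353 miRNAs that had at least 1 read in at least 2 replicates of a group. To be called, a miRNA had to reach a log2 fold change of 1 in either direction, an unadjusted p of 0.05 or less and an adjusted p of 0.1 or less. Under this rule 21.5% of all miRNAs were called, 9.63% as lower and 11.9% as higher in dominant follicles. All 3 members were tested, and 1 of them, bta-miR-224, was called, as lower. Without the fold change minimum 30.3% of all miRNAs passed, and of the members again bta-miR-224 alone. With 3 members this share cannot be set apart from that of all miRNAs. In bulk RNA, fewer cells of a type and less RNA per cell cannot be told apart.

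Bta-miR-224 was the most abundant member and was lower in dominant follicles. D1, D2 and D3 held 37, 32 and 39 reads, which corresponds to 131, 148 and 124 CPM. S1, S2 and S3 held 94, 72 and 84 reads, or 278, 233 and 296 CPM. Every dominant library lay below every subordinate library, a pattern found in that direction for 18.4% of all miRNAs tested. The group means were 134 ± 12.6 CPM (SD, n = 3) in dominant and 269 ± 32.6 CPM in subordinate follicles (SD, n = 3). The log2 fold change was -1.002 (standard error 0.24, 95% interval -1.55 to -0.46, edgeR quasi-likelihood test, adjusted p = 0.0198), a level 2.003-fold lower in dominant follicles. An exact permutation test of the CPM gave p = 0.1, the smallest value that 3 against 3 libraries allow. The study had already listed bta-miR-224 as lower in dominant follicles from these same libraries, so this call is not independent of it.

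**Figure D1:**
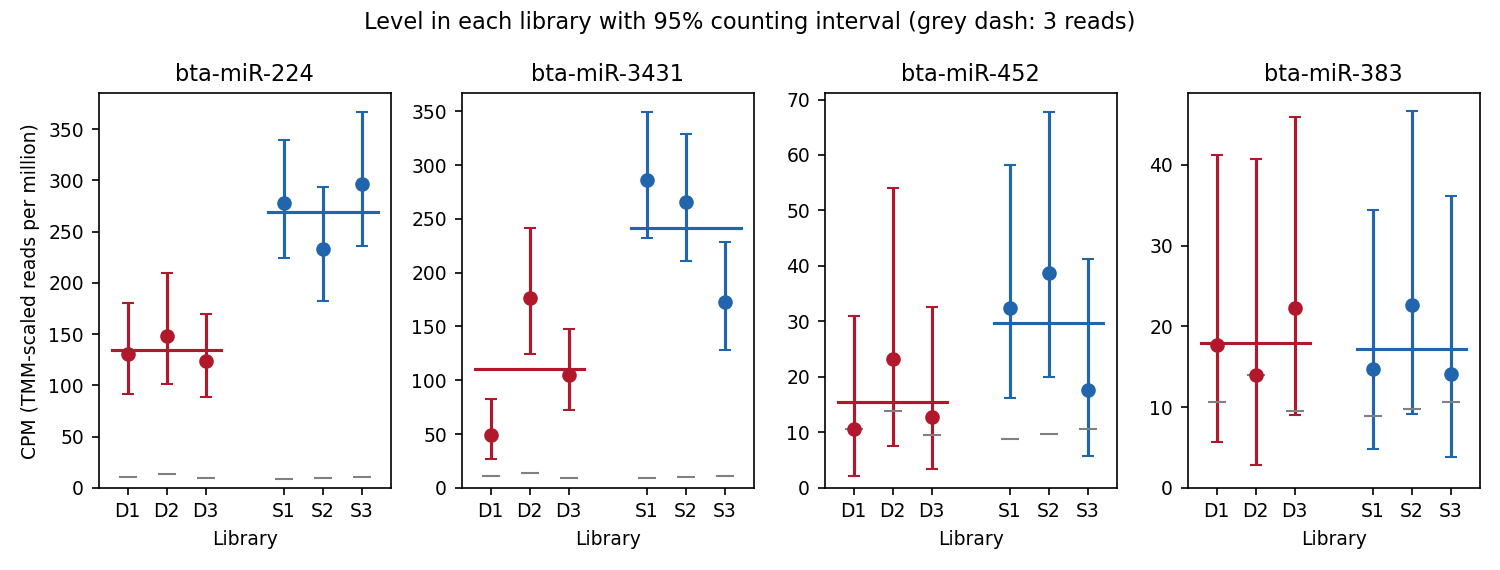
CPM of the 3 members and of bta-miR-3431 in each library (D, dominant, red; S, subordinate, blue), with 95% Poisson intervals for counting error, group means as horizontal lines and the worth of 3 reads as grey dashes. The dominant points of bta-miR-224 lie between 124 and 148 CPM and its subordinate points between 233 and 296 CPM, whereas the groups overlap for the other 3 miRNAs.

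The fold change of bta-miR-224 lay on the threshold of the call rule. Among the 16 alternatives, those that changed only a threshold kept the same fit, so their estimate and adjusted p could not differ. The adjusted p of bta-miR-224 stayed at or below 0.1 under all 16 and its log2 fold change below 0, between -1.10 and -0.80. The call was lost in 6 of them because the fold change came out slightly under the minimum. These were the fit without D1 (-0.98), without D3 (-0.96), without S1 (-0.98), without S3 (-0.93), with a minimum of 10 reads in at least 3 libraries (-0.996), and with total counts in place of TMM (-0.80). With total counts the median log2 fold change of all miRNAs also moved, by 0.19, from -0.20 to -0.01. Relative to that median bta-miR-224 stood at -0.80 with TMM and at -0.79 with total counts. Scaling moves nearly all miRNAs alike, so these values had to be close and do not bear on the call.

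Bta-miR-452 was much rarer than bta-miR-224. It had 3, 5 and 4 reads in D1, D2 and D3 (10.6, 23.2 and 12.7 CPM) and 11, 12 and 5 reads in S1, S2 and S3 (32.5, 38.8 and 17.6 CPM). D1, at 3 reads, sat on the detection limit. S1 and S2 lay above every dominant library, and S3 lay below D2, so the groups overlapped. Between libraries of the same replicate number, the dominant one was lower in 3 of 3 pairs. The share of all miRNAs with this pattern was not computed, and the pairing is uncertain. The mean was 15.5 ± 6.74 CPM (SD, n = 3) in dominant and 29.6 ± 10.9 CPM (SD, n = 3) in subordinate follicles, and an exact permutation test gave p = 0.2. The log2 fold change was -0.96, close to that of bta-miR-224, but with a standard error of 0.54 and an adjusted p of 0.245 (edgeR's quasi-likelihood test). The 95% interval, -2.19 to 0.27, covers no difference as well as a decrease larger than that of bta-miR-224. Summed over libraries, 12 reads stood against 28, and counting error alone gave an interval of -2.14 to -0.0047 for the log2 ratio.

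In the RefSeq annotation of assembly ARS-UCD2.0, which is not the build of the files and was used here only for gene order, the hairpins of miR-224 and miR-452 lay next to each other within the bounds of GABRE on chromosome X. The hairpin of bta-miR-3431, for which no role is given here, lay next to that of miR-224, within 50 kb. Whether it also lies within the bounds of GABRE was not determined. Bta-miR-3431 had 14, 38 and 33 reads in D1, D2 and D3 (49.4, 176 and 105 CPM) and 97, 82 and 49 reads in S1, S2 and S3 (286, 265 and 173 CPM). D2 was slightly above S3, so the groups overlapped, while the dominant library was lower in 3 of 3 pairs of the same replicate number. How many of all miRNAs share this pattern was not computed. The log2 fold change was -1.15 (standard error 0.44, 95% interval -2.15 to -0.15, edgeR quasi-likelihood test, adjusted p = 0.0956), which passed the call rule. Bta-miR-3431 was not among the miRNAs that the study listed as differing between the groups. Its estimate was negative under all 16 alternatives, between -1.61 and -0.79, where changes of threshold alone repeated the estimate given above. The call was lost without D1 (-0.79), D3 (-1.18), S1 (-1.01) or S2 (-1.08), with total counts (-0.94), and when an adjusted p of 0.05 or less was required.

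Summed, bta-miR-224, bta-miR-452 and the neighbouring bta-miR-3431 gave 191, 348 and 242 CPM in D1, D2 and D3. In S1, S2 and S3 they gave 597, 537 and 487 CPM. Each dominant library lay below each subordinate library in this sum, whose size rests on bta-miR-224 and bta-miR-3431. Bta-miR-224 made up 54.2 ± 13.2% (SD, n = 3) of their reads in dominant and 50.3 ± 9.32% in subordinate follicles (SD, n = 3). Bta-miR-452 made up 5.83 ± 0.740% and 5.43 ± 1.80% (SD, n = 3 each). The shares within the locus thus overlapped between the groups, while the summed level did not. Of all single miRNAs tested, 18.4% also had every dominant library below every subordinate library. Among the 3 summed miRNAs this held for bta-miR-224 alone, so the sum is not independent of it. The mRNA of GABRE was not measured in these libraries.

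Bta-miR-383 was rare in both follicle types, and no difference between them was detectable. It had 5, 3 and 7 reads in D1, D2 and D3 (17.6, 13.9 and 22.3 CPM) and 5, 7 and 4 reads in S1, S2 and S3 (14.8, 22.6 and 14.1 CPM). The ranges of the groups almost coincided, and D2, at 3 reads, sat on the detection limit. The means were 17.9 ± 4.20 CPM and 17.2 ± 4.75 CPM (SD, n = 3 each; exact permutation test, p = 1). The log2 fold change was 0.08 (standard error 0.49, edgeR quasi-likelihood test, adjusted p = 0.912), and its sign turned when D3, S1 or S3 was left out (-0.10, -0.02 and -0.03). The 95% interval was -1.04 to 1.20, and it includes a change as large as that of bta-miR-224 in either direction, so a difference was not shown to be absent at this depth. No other annotated gene lay within 50 kb of its hairpin in the RefSeq table.

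**Figure D2:**
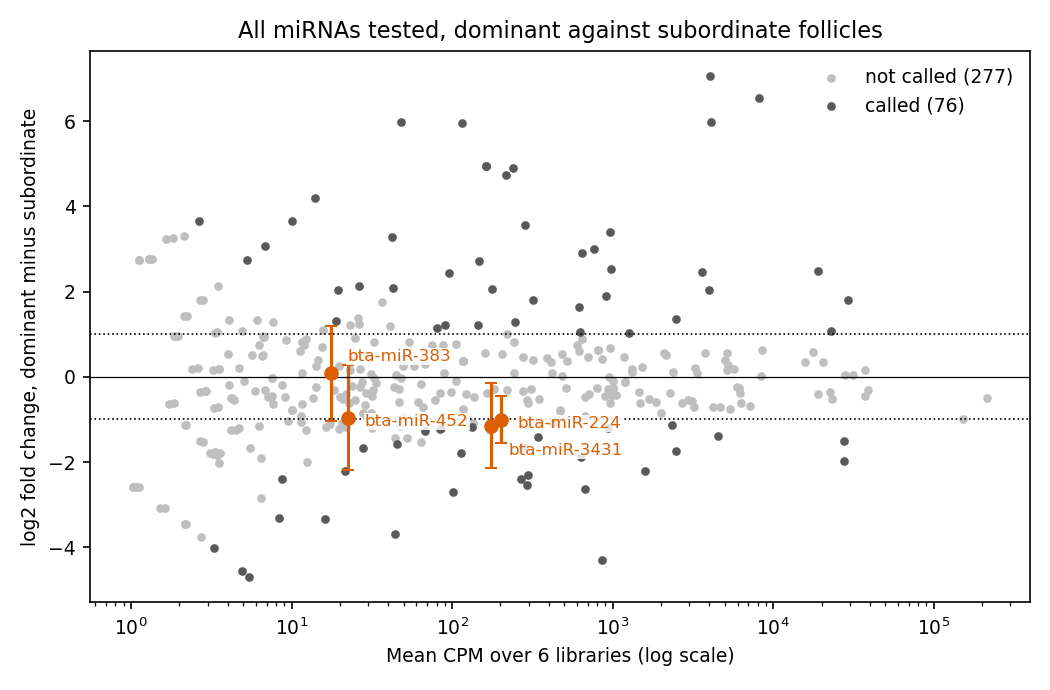
Log2 fold change (dominant minus subordinate) against mean CPM over the 6 libraries (log scale) for the 353 miRNAs tested; the 76 called are dark, the 277 others pale, and the members and bta-miR-3431 are orange with 95% intervals. Bta-miR-224 (-1.002) and bta-miR-452 (-0.96) lie at the lower dotted line, which marks the fold change minimum, and bta-miR-383 lies near 0 (0.08).

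As shares of all miRNA reads of a library the members were minor species. Bta-miR-224 took 0.0145 ± 0.00216% (SD, n = 3) in dominant and 0.0252 ± 0.00473% in subordinate follicles (SD, n = 3). No dominant library reached the share of any subordinate library (exact permutation test, p = 0.1). Its 95% Wilson intervals ran from 0.00915 to 0.0237% over the dominant libraries and from 0.0157 to 0.0348% over the subordinate libraries. For bta-miR-452 the shares were 0.00169 ± 0.000815% and 0.00275 ± 0.000972% (SD, n = 3 each; exact permutation test, p = 0.2). Those of bta-miR-383 were 0.00191 ± 0.000335% and 0.00158 ± 0.000315% (SD, n = 3 each; exact permutation test, p = 0.2). Intervals of this kind cover counting error only, since reads amplified by PCR are not independent molecules.

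The order of the levels differed between the groups only among the rarer members. In both follicle types bta-miR-224 came first, at rank 137 of 353 miRNAs by mean CPM in dominant and rank 114 in subordinate follicles. Its lowest library (124 CPM) was above the highest of bta-miR-452 (38.8 CPM) and of bta-miR-383 (22.6 CPM). Bta-miR-383 (rank 226) was above bta-miR-452 (rank 233) in dominant follicles, and bta-miR-452 (rank 198) above bta-miR-383 (rank 223) in subordinate follicles. The CPM ranges of bta-miR-452 and bta-miR-383 overlapped in both groups. Within a library, the reads of bta-miR-452 per read of bta-miR-383 were 2.2, 1.71 and 1.25 in S1, S2 and S3. In D1, D2 and D3 they were 0.6, 1.67 and 0.57, so the dominant order was mixed. These counts are small, and neither order was tested. Comparing levels between miRNAs assumes that adapters were ligated to each of them equally well, which the counts cannot show.

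The ratio of a pair of members within a library does not depend on how libraries are scaled, and was used to ask whether the members changed alike. Log2 ratios were computed after adding 0.5 reads to both counts, and p-values of the 3 pairs were adjusted with the Benjamini-Hochberg method. For bta-miR-224 to bta-miR-452 the log2 ratio was 3.04 ± 0.44 in dominant and 3.17 ± 0.71 in subordinate follicles (SD, n = 3 each). In plain reads there were 12.3, 6.4 and 9.75 reads of bta-miR-224 for each of bta-miR-452 in D1, D2 and D3, and 8.55, 6.0 and 16.8 in S1, S2 and S3. No difference was detectable (-0.13, exact permutation test, p = 1, adjusted p = 1), and its sign turned without D2 (0.11) or S3 (0.25).

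For bta-miR-224 to bta-miR-383 the log2 ratio was 2.79 ± 0.41 in dominant and 3.87 ± 0.52 in subordinate follicles (SD, n = 3 each), a difference of -1.08. The values were 2.77, 3.22 and 2.40 in D1, D2 and D3, all below the 4.10, 3.27 and 4.23 of S1, S2 and S3. The exact permutation test gave p = 0.1, the smallest possible, and an adjusted p of 0.3. D2 and S2 were nearly equal, and without the added 0.5 reads D2 (10.7) was above S2 (10.3). The difference therefore did not pass the correction, and the separation of the groups rested on the pseudocount. For bta-miR-452 to bta-miR-383 the log2 ratio was -0.25 ± 0.78 and 0.70 ± 0.39 (SD, n = 3 each; difference -0.94, exact permutation test, p = 0.2, adjusted p = 0.3). The groups overlapped, and the dominant library was lower in 3 of 3 pairs of the same replicate number. However, D2 and S2 were nearly level in plain reads (1.67 and 1.71), and the pairing is uncertain.

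**Figure D3:**
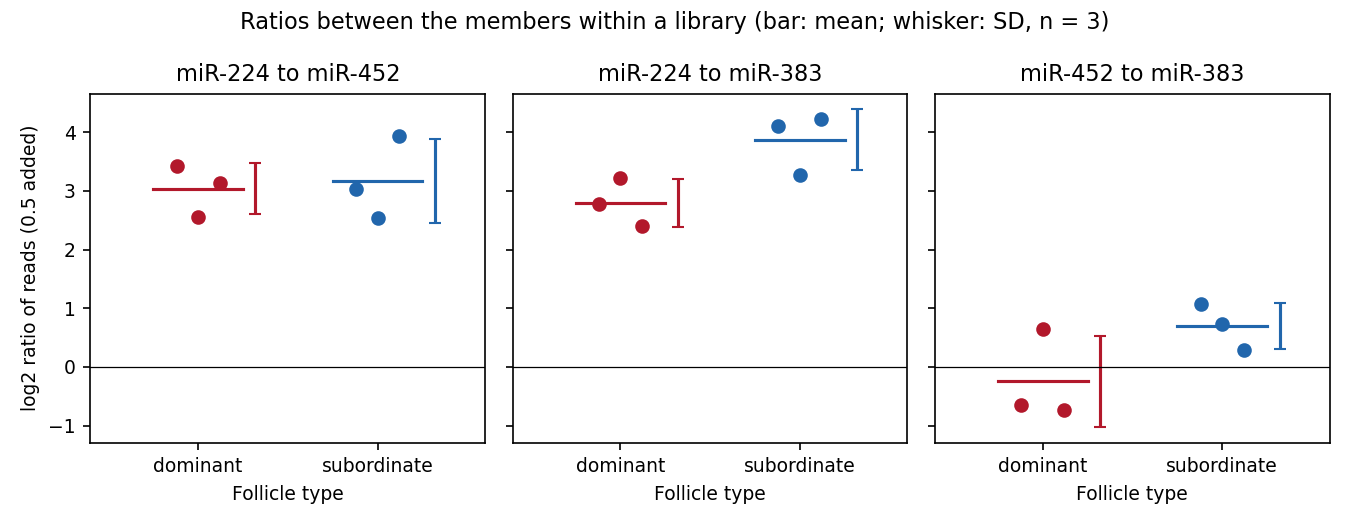
Log2 ratio of the reads of each pair of members within each library after adding 0.5 reads; points are libraries, horizontal bars are means and whiskers are SD (n = 3). The ratio of miR-224 to miR-452 overlaps between the follicle types (means 3.04 and 3.17), and that of miR-224 to miR-383 is lower in dominant libraries (means 2.79 and 3.87), with D2 and S2 nearly level.

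The miRNAs whose level followed that of bta-miR-224 most closely over the 6 libraries were bta-miR-214 (Pearson's r = 0.97), bta-miR-6526 (0.96), bta-miR-423-5p (0.95), bta-miR-27b (0.95) and bta-miR-2285k (0.94), among miRNAs averaging 10 reads or more. These correlations of log2 CPM are a description, because all 6 points share the libraries and the groups differ. With the group means removed r was 0.86 for bta-miR-214 and 0.85 for bta-miR-27b, and between 0.31 and 0.53 for the other 3. Bta-miR-214, bta-miR-6526 and bta-miR-2285k were themselves called as lower in dominant follicles (log2 fold change -1.20, -2.53 and -2.31). Bta-miR-3431, whose hairpin lies next to that of miR-224, came only at rank 39 (r = 0.74, and 0.14 with the group means removed). Bta-miR-452 and bta-miR-383 had too few reads for such a comparison.

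Other miRNAs that earlier work links to steroid output of granulosa cells went in both directions. Of 11 names listed, 10 were in the files and 8 passed the detection rule, of which 2 were called higher and 2 lower. That is 50% called, beside 21.5% of all miRNAs, with a median log2 fold change of -0.50 beside -0.20 for all miRNAs tested. The study had reported each called name from these same libraries, and the list was chosen with earlier results of these data known. Its share of calls is therefore not independent, and bta-miR-378, bta-miR-378b and bta-miR-378c are relatives. Bta-miR-378, a repressor of aromatase, was lower in dominant follicles, with 159, 243 and 544 reads in D1, D2 and D3 against 1514, 1282 and 800 in S1, S2 and S3 (log2 fold change -1.74, edgeR quasi-likelihood test, adjusted p = 0.0133). Its relative bta-miR-378b gave -1.79. Bta-miR-132, which raises estradiol in mouse granulosa cells, had a log2 fold change of 5.99 (adjusted p = 0.000128, edgeR's quasi-likelihood test).

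Bta-miR-375, reported to lower estradiol in pig granulosa cells, had 7, 6 and 9 reads in dominant and 0, 1 and 0 in subordinate libraries, and was called higher. The 4 detected miRNAs of the list that were not called were bta-miR-378c (-0.94), bta-miR-143 (-0.53), bta-miR-320a (-0.47), a repressor of estradiol output in mouse granulosa cells, and bta-miR-15a (0.40). Bta-miR-320b and bta-miR-133b had no read in any library. Among miRNAs reported to raise estradiol, bta-miR-132 thus had the opposite sign to bta-miR-224, and bta-miR-383 lay between them.

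Other miRNAs annotated on chromosome X went in both directions. Beside bta-miR-224, bta-miR-452 and bta-miR-3431, 52 mature names had hairpins annotated only on X, and 37 of them were tested. Of these 8 were called higher and 3 lower (29.7% called and 8.11% lower, beside 21.5% and 9.63% of all miRNAs), and the median log2 fold change was 0.45 beside -0.20. Bta-miR-424-3p (2.71), bta-miR-424-5p (2.53), bta-miR-542-5p (2.44), bta-miR-450a (1.80) and bta-miR-450b (1.35), which belong to a known X-linked cluster and were named after their values were seen, made up 5 of the 8 higher calls. In the X-linked cluster of miR-188, miR-362, miR-500, miR-502, miR-532 and miR-660, all 8 mature names were tested. The log2 fold changes ranged from -0.57 (bta-miR-660) to 0.89 (bta-miR-502a). None was called by edgeR's quasi-likelihood test or by DESeq2, and 1 had an unadjusted p under 0.05.

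**Figure D4:**
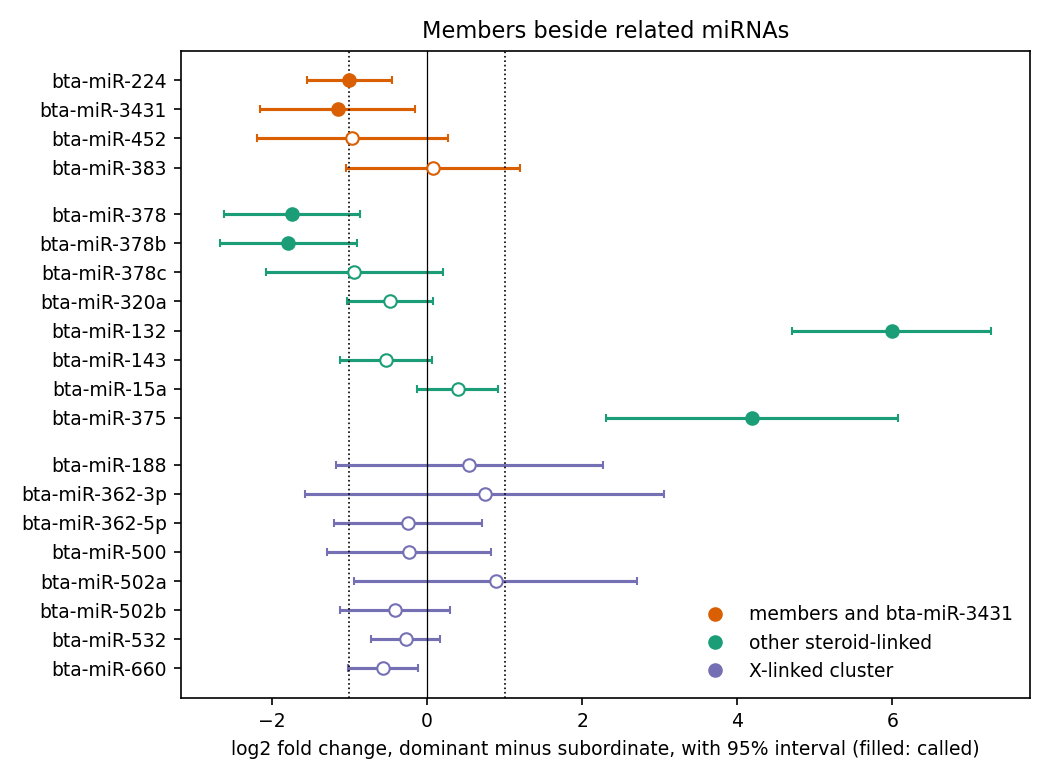
Log2 fold change (dominant minus subordinate) with 95% intervals for the members and bta-miR-3431 (orange), the 8 tested miRNAs of the steroid-linked list (green) and the 8 of the X-linked cluster (purple); filled points were called. Bta-miR-224 (-1.002) lies with bta-miR-378 (-1.74) and bta-miR-378b (-1.79) on the side of lower levels, and bta-miR-132 (5.99) and bta-miR-375 (4.19) lie on the other.

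The summed markers of each other cell type were above 0 in all libraries, and their part in the differences above was not tested. Bta-miR-202, abundant in gonadal somatic cells, had between 43510 and 46751 CPM in dominant and between 11576 and 15231 CPM in subordinate follicles. The summed level of 2 endothelial miRNAs (bta-miR-126-5p and bta-miR-126-3p) moved in the same direction as bta-miR-224, with 73.2 to 293 CPM in dominant and 354 to 540 CPM in subordinate follicles. Neither was called by edgeR's quasi-likelihood test (adjusted p = 0.113 and 0.105), while DESeq2 called both. The 5 miRNAs of theca and stroma, which include bta-miR-214 and bta-miR-143, summed to between 17603 and 27823 CPM and between 21064 and 35751 CPM, and 1 of 5, bta-miR-214, was called lower. The 3 erythroid miRNAs summed to between 1048 and 13091 CPM in dominant and between 808 and 1530 CPM in subordinate follicles, with 2 of 3 called higher. The 4 leukocyte miRNAs summed to between 258 and 1115 CPM and between 408 and 558 CPM. No marker of these lists was at 0 in every library of a group. Bta-miR-144 had no read in D3 and S3, and bta-miR-142-3p none in D2, D3, S2 and S3.

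**Figure D5:**
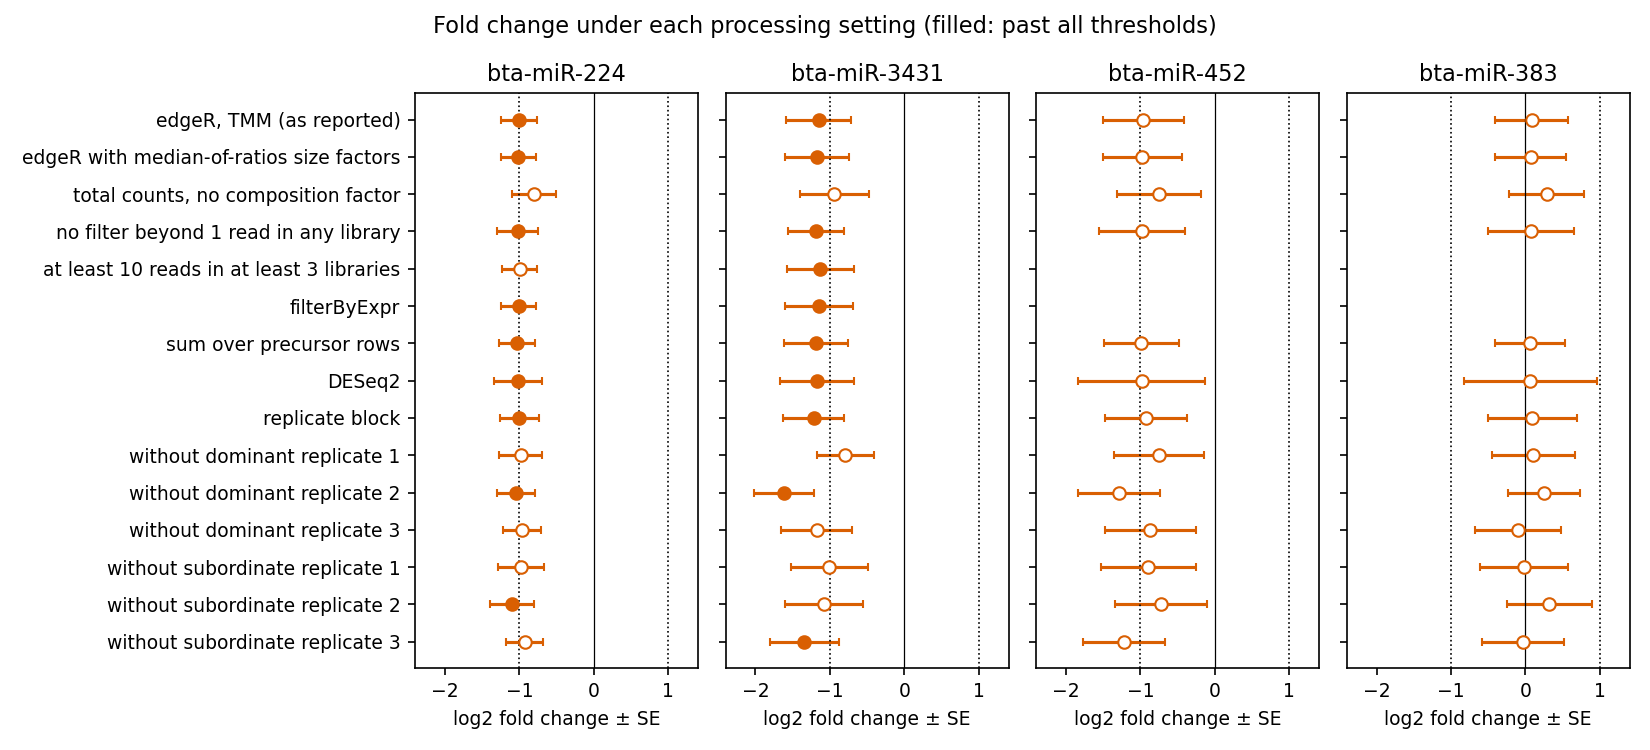
Log2 fold change ± standard error of the members and bta-miR-3431 under each processing setting; filled points passed all thresholds, dotted lines mark the fold change minimum, and empty places are settings that removed the miRNA. Bta-miR-224 stays between -1.10 and -0.80 and crosses in and out of the call at the dotted line, bta-miR-452 stays between -1.29 and -0.73 without a call, and bta-miR-383 lies on both sides of 0.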

How the data were processed

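Small RNA was sequenced from 3 libraries of dominant and 3 of subordinate follicles. The files as deposited hold counts. To make them, the authors removed adapters, short reads and reads of low quality (Cutadapt, Seqtk), mapped the rest to the bovine genome (UMD3.1 in the submitters' processing notes) with Bowtie and counted them on the bovine miRNAs of miRBase release 20 with miRDeep2, 1 row per pair of mature miRNA and precursor. No normalization is in these counts.

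For each mature name the largest precursor row was used, which left totals between 190385 and 364125 reads. Over the 353 miRNAs with at least 1 read in at least 2 replicates of a group, edgeR 4.0.16 (R 4.3.3) was run with TMM factors, a quasi-likelihood fit on follicle type and Benjamini-Hochberg adjustment. The call thresholds and the detection rule follow the study's methods. As standard error, the absolute log2 fold change over the root of its F value was taken, and a 95% interval used it with the t quantile of the test's degrees of freedom. Since nothing in the labels says that pools came from separate animals, p-values measure the spread between these pools. Alternatives were DESeq2 1.42.0, other scalings, filters and thresholds, summed precursor rows, a replicate block, and each library left out. Python 3.11.15 with scipy 1.17.1 gave the exact tests. The script was checked on simulated data with changes larger than that of bta-miR-224. Its bound on recovery was set for miRNAs averaging 10 reads or more, so the check does not cover bta-miR-452 and bta-miR-383.

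Log2 CPM deviations of libraries with the same replicate number correlated over 194 miRNAs averaging 10 reads or more (r = 0.14, 0.38 and 0.41 for numbers 1, 2 and 3). All were above 0.1, the bound set for pairing, so the numbers were taken to pair the libraries. The tests of the Results still compared the groups without pairs, unless stated, and the replicate block was an alternative. Support for number 1 is weak, since D2 with S1 (0.19) and D1 with S2 (0.12) gave like values, and the labels do not say what a number marks.

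The members and lists were chosen with earlier results of these data known. Named were the members, miRNAs within 50 kb of their hairpins, the names next to them in abundance, the 5 most like bta-miR-224, and the lists. RefSeq hairpin positions (ARS-UCD2.0) matched 752 of 766 precursors and served only for gene order and chromosome. Mature sequences were not used here.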

Additional observations from a re-analysis of the deposited data

How the results depend on the processing

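Adding a replicate block changed no call of a member (bta-miR-224 -1.001, edgeR quasi-likelihood test, adjusted p = 0.0361), and gave 38 miRNAs called higher and 33 lower beside 42 and 34. In this blocked edgeR quasi-likelihood test bta-miR-452 gave -0.93 (adjusted p = 0.293) and bta-miR-383 gave 0.09 (adjusted p = 0.920). Bta-miR-3431 gave -1.21 (adjusted p = 0.0755, same test). Alternatives that changed only a threshold repeated the estimates given above, so they add nothing on sign or size. Bta-miR-224 was negative in all 16 alternatives, with an adjusted p between 0.0079 and 0.0884. It fell short of the fold change minimum with total counts (-0.80), with at least 10 reads in at least 3 libraries (-0.996) and without D1, D3, S1 or S3. Leaving out a library in turn gave -1.10 to -0.93 for bta-miR-224, -1.29 to -0.73 for bta-miR-452, which was negative and not called in all 14 alternatives that kept it, and -0.10 to 0.32 for bta-miR-383. Bta-miR-383 was reversed without D3 (-0.10), S1 (-0.02) or S3 (-0.03). The ratio of bta-miR-224 to bta-miR-452 was reversed without D2 (0.11) or S3 (0.25), within a range of -0.45 to 0.25. Between 22 and 38 miRNAs were called lower with a library left out, fewest without D1. With total counts 47 were called higher and 23 lower, so higher calls made up 67.1% of the calls beside 55.3%. With a false discovery rate of at most 0.1 and no fold change minimum, 57 were higher and 50 lower. With all precursor rows in the denominator the shares of bta-miR-224 became 0.0108 and 0.0181%, and those of bta-miR-383 0.00142 and 0.00113%, in dominant and subordinate follicles. The filter of at least 10 reads and edgeR's own filter removed bta-miR-452 and bta-miR-383, so neither gave a value there. For these rare miRNAs the depth sets the limit, since 3 reads were worth up to 13.9 CPM.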

Other observations

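Next to bta-miR-224 in mean CPM over the 6 libraries (rank 131 of 353) stood bta-miR-212 and bta-miR-874 above it and bta-miR-505 and bta-miR-32 below it. Their log2 fold changes were 4.73, 0.53, -0.28 and 2.07. Next to bta-miR-452 (rank 221) stood bta-miR-1291 (0.15), bta-miR-2285e (-0.62), bta-miR-6517 (-1.17) and bta-miR-455-3p (-0.39), of which none was called. Next to bta-miR-383 (rank 233) stood bta-miR-3613 (1.30), bta-miR-381 (-0.31), bta-miR-2284v (-1.11) and bta-miR-2336 (-1.18), and bta-miR-3613 was called higher in dominant follicles (edgeR quasi-likelihood test, adjusted p = 0.0806).

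For bta-miR-224, bta-miR-452 and bta-miR-3431 the SD between libraries can be set beside the SD that independent reads would give by counting. With 3 libraries an SD is imprecise. No difference in spread was tested. For bta-miR-224 the SD between dominant libraries was 12.6 CPM beside 22.7 CPM from counting. In subordinate follicles the SD was 32.6 CPM beside 29.6 CPM from counting. For bta-miR-452 it was 6.74 CPM in dominant and 10.9 CPM in subordinate follicles, beside 7.57 and 9.89 CPM from counting. For bta-miR-3431 the SD was 63.6 CPM in dominant and 60.4 CPM in subordinate follicles, beside 20.1 and 28.2 CPM from counting. D1 had 14 reads of bta-miR-3431 against 37 of bta-miR-224, and D2 had 38 against 32.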
